A study of Mus musculus with 6 samples.

Results

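Neurexins, neuroligins, leucine-rich repeat transmembrane (LRRTM) proteins and the DSCAM proteins are cell surface molecules that join neurons to each other, and the genes of 9 of them (Nrxn2, Nrxn3, Nlgn1, Nlgn2, Nlgn3, Lrrtm1, Lrrtm2, Dscam and Dscaml1) were followed here in nuclear RNA. They were taken by gene symbol from the 23337 gene rows of the count tables, and all 9 had a row. The samples were cultured mouse neural precursor cells (NPCs) from the forebrain at embryonic day 13.5, at passage 6 to 7, grown with EGF and basic FGF. One group of 3 lines was labelled Fmr1 WT (lines 3, 8 and 19) and the other group of 3 lines was labelled Fmr1 KO (lines 3, 13 and 16), with 1 library per line. The design text calls the lines independent, and the knockout allele is not given in the sources used here.

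Neurexins sit mainly on the presynaptic side and bind neuroligins and LRRTM proteins across the synaptic cleft, and these pairs organise the release machinery on one side and the receptor scaffold on the other. DSCAM and DSCAML1 are large immunoglobulin-type adhesion molecules that act in neurite spacing and self-avoidance in the mouse retina and take part in axon growth. Fmr1 encodes FMRP, an RNA-binding protein, and neuroligin messages are among those reported to be bound by it in mouse brain. Dividing precursors form no mature synapses, so the values below are levels of nuclear RNA and not of synaptic protein.

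Total counts ran from 18702738 to 26789522 per library, and 13925 genes were tested. WT line 19 and the library labelled KO line 3 stood apart from the other lines of their groups: the chi-square per degree of freedom was 64.8 and 66.5 between WT line 19 and the other WT lines, against 11.3 between those, and 76.8 and 96.8 between KO line 3 and the other KO lines, against 17.3 between those. Fmr1 itself was at 371 CPM in the library labelled KO line 3, above the WT range of 223 to 274 CPM, and at 188.2 and 153 CPM in KO lines 13 and 16, where CPM are read counts relative to library size, corrected by TMM factors. The label of KO line 3 is therefore not borne out by its Fmr1 level. KO lines 13 and 16 lay below the WT range but kept Fmr1 RNA, so its level does not settle their labels either. Between the groups Fmr1 did not pass the test used below (log2 fold change -0.10, SE 0.29, adjusted p = 0.795 in edgeR). Groups are named below by their labels. Xist was at or above 15465 CPM in WT lines 3 and 8 and KO line 3, and at or below 81.8 CPM in the other 3 lines. WT line 19 and KO line 3 thus each differed in Xist from the other lines of their group. The chi-square values above include the counts of Xist, and its part in them was not tested.

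Markers of the labelled cell type were present in both groups. Nes, an intermediate filament of neural precursors, was at 2448 ± 367 CPM in WT and 2146 ± 314 CPM in the libraries labelled KO, and Sox2, a transcription factor of the same cells, at 106 ± 5.50 and 119 ± 24.8 CPM (SD, n = 3 each). Summed over 12 precursor markers the level was 7437 to 8112 CPM in WT and 5640 to 6847 CPM in KO, without overlap. Of these 12, Nr2e1 was called higher, Vim and Slc1a3 were called lower, and the other 9 were not called. Some markers of other neural cells differed between the groups as well, and the part of these marker differences in the results below was not tested. Over 12 oligodendrocyte lineage markers the sum was 714 to 791 CPM in WT and 1151 to 1353 CPM in KO, with 5 of 8 tested markers higher and 0 lower, among them Pdgfra at 2.31 ± 1.24 and 39.0 ± 1.46 CPM, while Mbp, Mag and Enpp6 were at 0 in all WT lines. Over 10 astrocyte markers the sum was 650 to 1006 CPM in WT and 270 to 359 CPM in KO, with 6 lower and 0 higher. Over 14 neuronal markers it was 966 to 1193 CPM in WT and 1369 to 1915 CPM in KO, with 5 of 13 tested markers higher and 0 lower. Most of this sum was Map2 (row Mtap2), at 907 ± 112 and 1289 ± 285 CPM. The test used below called 62.5%, 60% and 38.5% of the tested oligodendrocyte, astrocyte and neuronal markers, beside 42.3% of all tested genes. Of these neuronal markers the neuronal nuclear protein gene Rbfox3 was at 5.96 ± 1.29 and 6.81 ± 1.48 CPM and Stmn2 at means of 0.0460 and 0.0928 CPM, under the lowest value of 3 counts (0.112 CPM), while Dcx was at 0.639 ± 0.359 and 11.3 ± 6.13 CPM. In such bulk libraries, fewer cells of a type and less RNA per cell cannot be told apart.

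The question was which of these adhesion genes differed in nuclear RNA between the genotypes. All 9 had enough counts to be tested, and 7 passed edgeR's quasi-likelihood test after Benjamini-Hochberg adjustment over all tested genes, 5 of them higher and the other 2 lower in libraries with the KO label. The same test called 42.3% of all tested genes, 21.8% higher and 20.4% lower, so calls were common throughout these libraries. Lrrtm1 and Dscaml1 passed the count filter (0.469 CPM in 3 libraries) only through the KO group, so the filter itself favoured a difference. Of all 357 genes that passed so, 221 (61.9%) were called, and all 221 were higher. These 2 genes are therefore set apart in the counts below. Of the 7 genes that passed in each genotype alone, 5 were called, 3 higher and 2 lower, beside 41.4% of all genes that passed so. Of these 7 genes, 4 were called with at least a 2-fold difference, where 11.3% of all genes that passed in each genotype alone were. The same held for 6 of all 9 members and 14.1% of all tested genes. The groups did not overlap in 5 of the 7, where 53.6% of all genes that passed in each genotype alone did not. They did not overlap in 7 of all 9 members and in 54.3% of all tested genes. The median log2 fold change was 0.08 over the 7 genes and 0.01 over all tested genes, and it was 0.75 over the 9 only with Lrrtm1 and Dscaml1 included. The median of its size without regard to sign was 1.24 over the 7 genes. It was 0.34 over all genes that passed in each genotype alone and 0.37 over all tested genes. The members were chosen with results of these libraries known, so these shares describe the genes and carry no test.

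**Figure D1:**
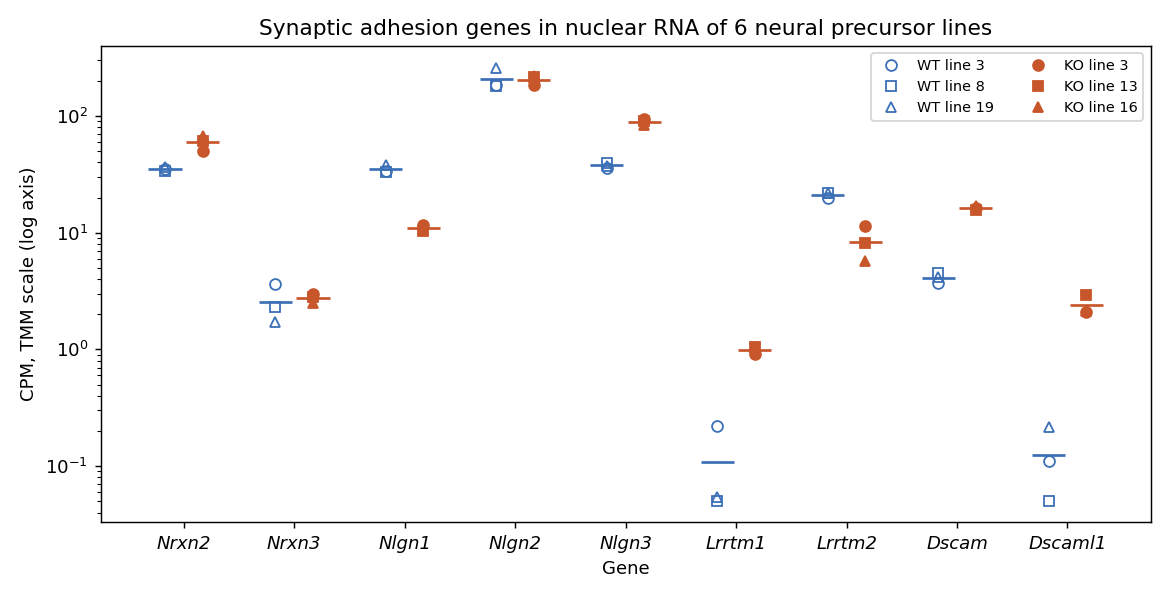
Level of the 9 adhesion genes (CPM on the TMM scale, log axis) in each line; open blue symbols are WT lines, filled red symbols are libraries labelled KO, and horizontal bars are group means. The groups overlap for Nrxn3 and Nlgn2, while Nlgn1 and Lrrtm2 are lower and the other 5 are higher in the libraries labelled KO.

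The neuroligin genes, which encode the postsynaptic partners of neurexins, diverged within one family. Nlgn1, whose protein is found mostly at excitatory synapses, was at 33.5, 33.1 and 38.0 CPM in WT lines 3, 8 and 19 and at 11.6, 10.4 and 10.8 CPM in KO lines 3, 13 and 16. All KO values lay far below all WT values. The gene fell 3.19-fold, by -1.67 on the log2 scale (SE 0.12, adjusted p = 2.79e-05 in edgeR). Nlgn3, a family member found at both excitatory and inhibitory synapses, was at 36.1, 39.7 and 37.3 CPM in WT lines 3, 8 and 19 and at 93.5, 89.9 and 83.7 CPM in KO lines 3, 13 and 16. Every KO line held more than 2 times the level of any WT line, and the gene rose by 1.24 on the log2 scale (SE 0.10, adjusted p = 5.53e-05 in edgeR). Nlgn1 and Nlgn3 thus moved in opposite directions.

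Nlgn2, whose protein is the neuroligin of inhibitory synapses, was the most abundant of the 9 genes. It was at 183, 179.8 and 260.2 CPM in WT lines 3, 8 and 19 and at 183, 215 and 218 CPM in KO lines 3, 13 and 16. WT line 19 was the highest of all 6, and the groups overlapped. The log2 fold change of -0.01 (SE 0.16) had a 95% interval of -0.37 to 0.34 and did not pass (adjusted p = 0.949 in edgeR). Without WT line 19 it was 0.18 (adjusted p = 0.314), and without that line and KO line 3 together it was 0.26 and passed (adjusted p = 0.0427, in a range of 0.0427 to 0.995 over 14 alternatives).

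Nlgn3 lies on the X chromosome (X, 101299168 to 101325963 in GRCm38, plus strand), and the lines differed in Xist, the RNA that silences one X chromosome in female cells. With Xist state as a covariate its log2 fold change was 1.26 (adjusted p = 3.90e-05 in edgeR). Among the libraries labelled KO, the Xist-high line 3 held 93.5 CPM and the Xist-low lines 89.9 and 83.7 CPM. In the GENCODE models Nlgn3 shares 3823 of its 9271 exon bases with Gm21986, a transcript on the same strand that has no count row. Whether the authors' counting set reads in these bases aside is not given in the sources used here. Nlgn1 shares 1229 exon bases with A830092H15Rik on the opposite strand, which has no row either.

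RefSeq start regions in GRCm38.p6 were at hand for 5 of the 9 genes (Nlgn1, Nlgn2, Lrrtm1, Nrxn3 and Dscam) in the table used. Those of Nlgn1 and Nlgn2 are shown because the first gene fell and the second did not pass the test. Each runs 5′ to 3′ on the gene's strand over 300 bases that span the start. Capitals mark the GC box GGGCGG, the CCAAT box or the TATA box TATAAA on either strand, and no matches overlap in the windows shown.
Nlgn1, chr3:26331860-26332159, minus strand: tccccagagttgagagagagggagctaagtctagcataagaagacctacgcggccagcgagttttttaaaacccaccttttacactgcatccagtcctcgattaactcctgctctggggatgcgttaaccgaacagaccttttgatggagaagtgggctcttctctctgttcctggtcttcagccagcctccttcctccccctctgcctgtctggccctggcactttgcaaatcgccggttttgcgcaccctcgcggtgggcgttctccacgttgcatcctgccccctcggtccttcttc
Nlgn1, second start, chr3:26153937-26154236, minus strand: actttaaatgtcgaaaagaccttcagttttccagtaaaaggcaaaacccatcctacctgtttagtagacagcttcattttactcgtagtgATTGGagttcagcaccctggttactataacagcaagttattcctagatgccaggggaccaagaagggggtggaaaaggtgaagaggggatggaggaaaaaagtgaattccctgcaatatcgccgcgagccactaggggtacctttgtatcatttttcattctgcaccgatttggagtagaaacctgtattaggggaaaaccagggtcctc
Nlgn2, chr11:69837735-69838034, minus strand: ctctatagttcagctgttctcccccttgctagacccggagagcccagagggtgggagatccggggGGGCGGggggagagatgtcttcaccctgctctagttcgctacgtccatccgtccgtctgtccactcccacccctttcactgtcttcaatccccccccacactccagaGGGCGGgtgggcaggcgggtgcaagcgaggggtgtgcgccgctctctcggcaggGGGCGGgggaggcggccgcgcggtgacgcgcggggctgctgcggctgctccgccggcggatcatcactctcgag
The Nlgn2 window held 3 GC boxes and 26 CG pairs. The first Nlgn1 window held 0 matches to the 3 motifs and 14 CG pairs. The second Nlgn1 window held 1 CCAAT box, read on the opposite strand as ATTGG, and 6 CG pairs. Of 32851 RefSeq start regions of the same length, 35.7% held a GC box, 37.4% a CCAAT box and 13.6% a TATA box, and the median number of CG pairs was 7. A match of letters is a description and not a site in use.

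Levels of different genes were compared per length, as CPM per kb of the union of annotated exons. On this scale the 3 neuroligins summed to 42.6 ± 8.03 in WT and 45.9 ± 2.84 in the libraries labelled KO (SD, n = 3 each), and the groups overlapped (exact two-sided permutation p = 0.4). Nlgn2 made up 84.04% ± 2.43 of the sum in WT and 77.2% ± 2.59 in KO. The share of Nlgn3 was 10.2%, 11.3% and 7.76% in WT lines 3, 8 and 19 and 23.6%, 20.4% and 18.98% in KO lines 3, 13 and 16. Nlgn3 thus held a larger share in every KO line than in any WT line, by a mean of 11.2 percentage points. The share of Nlgn1 was 6.18% ± 0.628 in WT and 1.78% ± 0.213 in KO, also without overlap. The exact two-sided permutation p was 0.1 for each of these 3 shares, the smallest that 3 against 3 lines can give, and 0.113 after Benjamini-Hochberg adjustment over 9 shares of the neuroligin, LRRTM and DSCAM families.

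**Figure D2:**
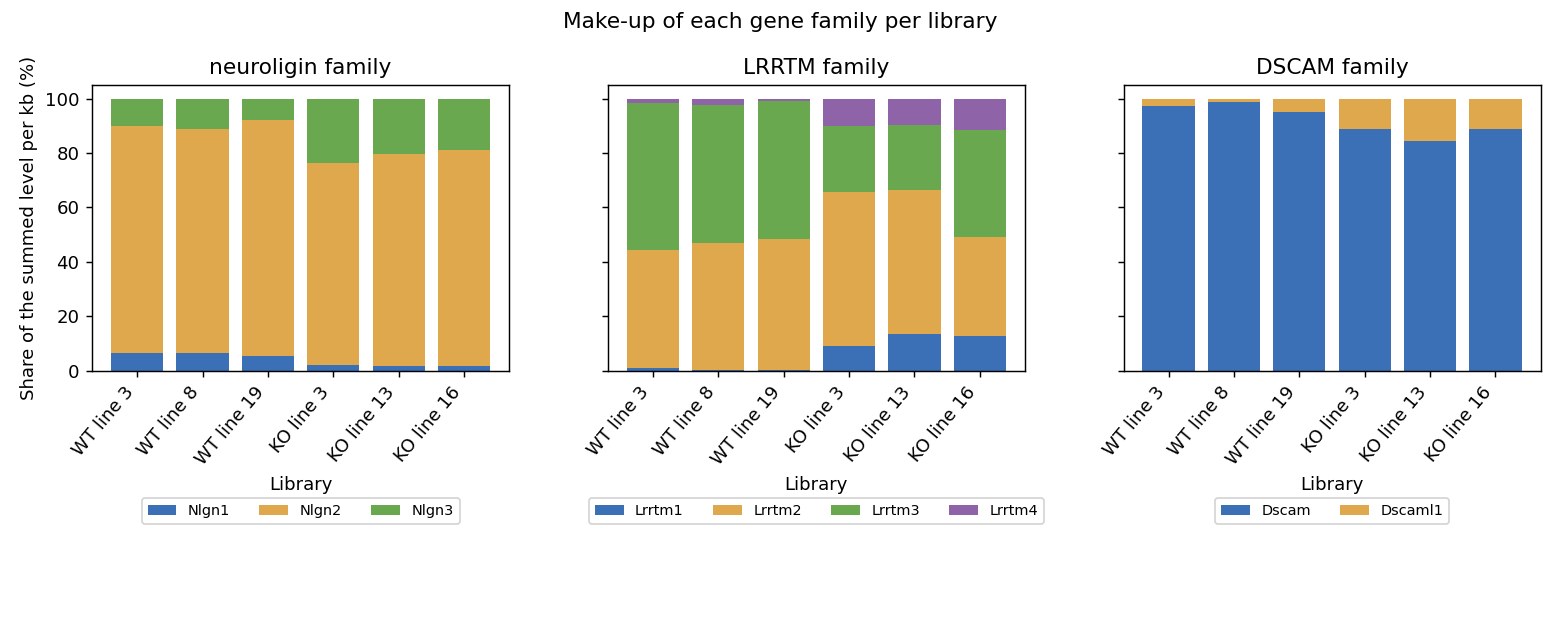
Share of each gene in the summed level per kb of exon of its family (%), for the neuroligin, LRRTM and DSCAM families in each of the 6 libraries. The Nlgn3 share is 7.76% to 11.3% in WT lines and 18.98% to 23.6% in libraries labelled KO, and the Dscaml1 share is 1.10% to 4.88% and 11.1% to 15.4%. Dscaml1 and Lrrtm1 passed the count filter only through the KO libraries.

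Of the neurexin genes among the 9, Nrxn2 rose and Nrxn3 did not pass the test. Nrxn2 (chromosome 19, 6418731 to 6544169) was at 35.5, 34.1 and 36.7 CPM in WT lines 3, 8 and 19 and at 50.7, 60.9 and 67.0 CPM in KO lines 3, 13 and 16. The WT lines were close together and the KO lines were spread, with KO line 3 nearest to WT. Its log2 fold change was 0.75 (SE 0.12, adjusted p = 0.00162 in edgeR), 0.67 with Xist state as a covariate and 0.88 without WT line 19 and KO line 3. Nrxn3, a gene of 1612060 bases on chromosome 12, was at 3.66, 2.33 and 1.74 CPM in WT lines 3, 8 and 19 and at 2.99, 2.83 and 2.49 CPM in KO lines 3, 13 and 16. All KO values fell inside the WT range. The log2 fold change of 0.08 (SE 0.28) had a 95% interval of -0.55 to 0.71 (adjusted p = 0.838 in edgeR), and it was -0.13 without WT line 19. Nrxn2 shares 682 exon bases with Slc22a12 on the opposite strand, a transporter gene that was below the test's filter at 0.199 and 0.167 CPM in WT and KO. Counts per gene do not separate the long and short neurexin forms that arise from different promoters.

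The LRRTM genes, which encode postsynaptic neurexin ligands, also moved in both directions. Among the members the rise was that of Lrrtm1, which passed the count filter only through the KO group. Lrrtm2, whose protein binds neurexins at excitatory synapses, was at 19.8, 22.0 and 21.9 CPM in WT lines 3, 8 and 19 and at 11.4, 8.12 and 5.71 CPM in KO lines 3, 13 and 16. KO line 3 again lay nearest to WT. Lrrtm2 fell, with a log2 fold change of -1.34 (SE 0.22, adjusted p = 0.00157 in edgeR) and of -1.59 without WT line 19 and KO line 3. Lrrtm1 had 6, 1 and 1 counts in WT lines 3, 8 and 19 and 17, 25 and 24 counts in KO lines 3, 13 and 16. That is 0.219, 0.0507 and 0.0542 CPM against 0.909, 1.06 and 1.03 CPM, with only WT line 3 above the value of 3 counts in its group. The log2 fold change was 3.0 (SE 0.47, adjusted p = 0.00122 in edgeR), and 4.10 without WT line 3. The ratio of summed counts was 8.23 with a 95% counting interval of 3.94 to 19.9, which covers counting error only.

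Both other LRRTM genes, which are not among the 9, are shown beside them. Lrrtm3 fell from 16.9 ± 0.656 to 3.49 ± 0.920 CPM (KO over WT -2.27 on the log2 scale, SE 0.19, adjusted p = 6.11e-05 in edgeR). Lrrtm4, which binds heparan sulfate proteoglycans, rose from 0.766 ± 0.319 to 1.80 ± 0.257 CPM (SD, n = 3 each; log2 fold change 1.22, SE 0.32, adjusted p = 0.0137 in edgeR). Per kb of exon the 4 LRRTM genes summed to 7.66 ± 0.165 in WT and 2.84 ± 0.433 in the libraries labelled KO, without overlap (exact two-sided permutation p = 0.1, or 0.15 adjusted over 3 families). Lrrtm2 held 46.0% ± 2.46 of the sum in WT and 48.5% ± 10.9 in KO, with overlap. The Lrrtm1 share that follows rests in WT on 8 counts in all. The other shares did not overlap: Lrrtm3 held 51.9% ± 2.03 in WT and 29.3% ± 8.92 in KO, Lrrtm1 0.467% ± 0.420 and 11.9% ± 2.52, and Lrrtm4 1.62% ± 0.638 and 10.3% ± 0.942 (SD, n = 3 each; exact two-sided permutation p = 0.1 for each, or 0.113 adjusted over 9 shares).

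All exons of Lrrtm1, Lrrtm2 and Lrrtm3 lie within the spans of the alpha-catenin genes Ctnna2, Ctnna1 and Ctnna3, on the opposite strand, and Lrrtm2 shares 95 exon bases with Ctnna1. The strand setting of the counts was not stated, so unspliced reads of the host could enter the LRRTM counts. The host and the nested gene did not always move together. Ctnna2 rose with Lrrtm1, from 1.54 ± 0.108 to 7.62 ± 1.73 CPM (KO over WT 2.30 on the log2 scale, SE 0.22). Ctnna1 rose while Lrrtm2 fell, from 203 ± 20.3 to 303 ± 33.9 CPM (KO over WT 0.58 on the log2 scale, SE 0.12). Ctnna3 held 0.0350 and 0 CPM in WT and KO, far below Lrrtm3. The part of host reads in the Lrrtm1 count was not tested.

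Both DSCAM genes rose, though Dscaml1 passed the count filter only through the KO group, so the filter itself favoured its rise. Dscam (chromosome 16, 96590840 to 97170752, minus strand) was at 3.69, 4.51 and 4.18 CPM in WT lines 3, 8 and 19 and at 16.4, 15.8 and 16.99 CPM in KO lines 3, 13 and 16. The lines of each group were close together and the groups far apart. Its log2 fold change was 1.99 (SE 0.14, adjusted p = 2.79e-05 in edgeR), and it ran from 1.91 to 2.06 over all 14 alternatives. Dscaml1 (chromosome 9, 45426628 to 45753712, plus strand) had 3, 1 and 4 counts in WT lines 3, 8 and 19 and 39, 69 and 50 counts in KO lines 3, 13 and 16. These are 0.110, 0.0507 and 0.217 CPM against 2.08, 2.92 and 2.15 CPM, and the WT counts are close to the floor of 3 counts. The log2 fold change of 4.22 (SE 0.40, adjusted p = 1.07e-04 in edgeR) became 4.82 without WT line 19 and KO line 3. The ratio of summed counts was 19.7 with a 95% counting interval of 9.76 to 46.4, which covers counting error only.

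Per kb of exon the pair summed to 0.483 ± 0.0451 in WT and 2.13 ± 0.0373 in the libraries labelled KO (SD, n = 3 each; exact two-sided permutation p = 0.1, or 0.15 adjusted over 3 families). Dscam held 97.1% ± 1.89 of that sum in WT and 87.4% ± 2.48 in KO. The Dscaml1 part in WT rests on 8 counts in all. The RefSeq start region of Dscam is shown because its values were narrow within each group and far apart between them.
Dscam, chr16:97170686-97170985, minus strand: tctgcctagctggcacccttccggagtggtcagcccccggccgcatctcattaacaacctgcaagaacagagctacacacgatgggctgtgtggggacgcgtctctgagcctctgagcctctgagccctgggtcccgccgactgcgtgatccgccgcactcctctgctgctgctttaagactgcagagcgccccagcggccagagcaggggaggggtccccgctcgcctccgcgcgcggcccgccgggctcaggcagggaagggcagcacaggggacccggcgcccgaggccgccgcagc
It had 0 matches to the GC, CCAAT and TATA boxes as spelled above, 26 CG pairs and a GC content of 70.0%, where the median of all such regions was 52.7%.

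**Figure D3:**
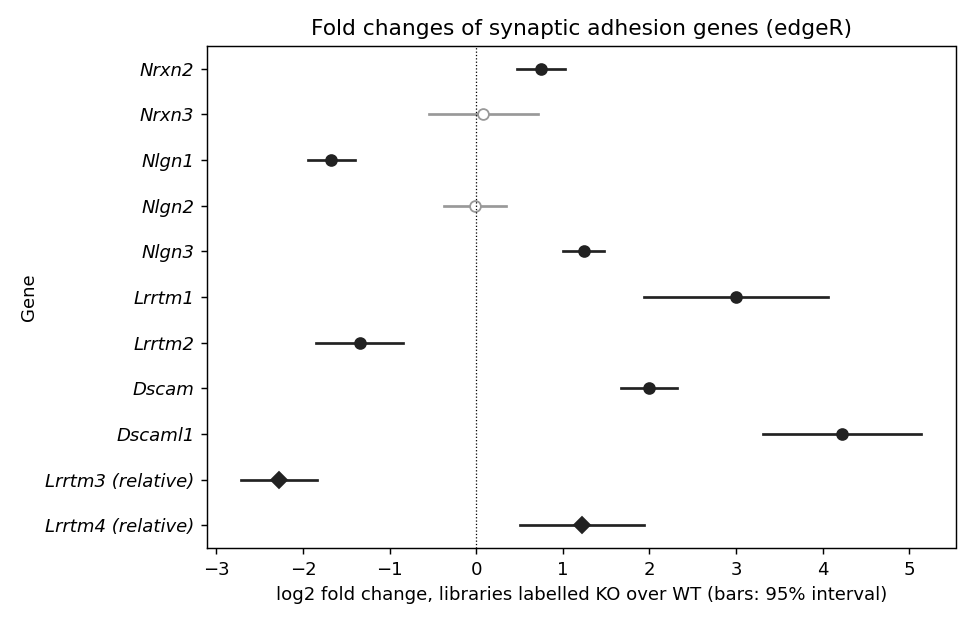
Log2 fold change of the libraries labelled KO over WT with its 95% interval (edgeR, 3 lines per group), for the 9 genes (circles) and 2 relatives (diamonds); open grey symbols did not pass the test. Nlgn1 at -1.67 and Nlgn3 at 1.24 lie on opposite sides of 0. Dscaml1 at 4.22 is the highest of the 11 and, like Lrrtm1, passed the count filter only through the KO libraries.

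The order of levels per kb of exon changed between the groups. In WT the order was Nlgn2 (35.9 CPM per kb), Nlgn3 (4.07), Lrrtm3 (3.98), Lrrtm2 (3.53), Nlgn1 (2.60), Nrxn2 (2.57), Dscam (0.469), Nrxn3 (0.204), Lrrtm4 (0.125), Lrrtm1 (0.0356) and Dscaml1 (0.0141). The neighbours Nlgn3 and Lrrtm3, Nlgn1 and Nrxn2, Nrxn3 and Lrrtm4, and Lrrtm1 and Dscaml1 overlapped in their values over the WT lines. In the libraries labelled KO, Nlgn2 (35.5 CPM per kb) still came first, followed by Nlgn3 (9.60), Nrxn2 (4.31), Dscam (1.86) and Lrrtm2 (1.40). Lrrtm3 (0.821) and Nlgn1 (0.815) came next and overlapped, and Lrrtm1 (0.329), Lrrtm4 (0.293), Dscaml1 (0.267) and Nrxn3 (0.220) were last, with overlap between each neighbouring pair. Dscam and Lrrtm2 overlapped as well, as did Lrrtm2 and Lrrtm3, with Lrrtm3 above Lrrtm2 in KO line 16 (1.04 against 0.948 CPM per kb). These orders depend on the exon union, which for Nrxn2 covers 13812 bases from 18 transcripts.

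For each of the 9 genes the 2 genes nearest in pattern were sought among 12348 named genes, by the Euclidean distance between log2 CPM values centred over the 6 libraries. The distance is a description over 6 points that share the split by genotype. Nlgn1 was nearest to Tnfrsf21, a death receptor of developing neurons (distance 0.14 on the log2 scale), and to Ildr2 (0.15). Nlgn3 was nearest to Cacna1g, a T-type calcium channel gene (0.09), and to Styk1 (0.10), and Nlgn2 to Mif4gd (0.13) and Iffo2 (0.15). Nrxn2 had the closest match of all, Adrm1, which encodes a ubiquitin receptor of the proteasome (0.04), followed by Wdr46 (0.06), while Nrxn3 was nearest to Agrp and Rnf151 (0.41 and 0.40). Dscam was nearest to Jph4, a junctophilin gene (0.22), and to Bsn, which encodes the presynaptic scaffold Bassoon (0.25). For Dscaml1, with only 3, 1 and 4 counts in WT lines 3, 8 and 19, the nearest were Shisa7 at 0.51 and Setbp1 at 0.69. Lrrtm1 was nearest to Spire2 and Sez6l (0.21 and 0.39), and Lrrtm2 to Nbeal1 and Cd27 (both 0.21).

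Genes whose products bind, cleave or resemble these adhesion molecules were followed in 7 lists, with 122 genes tested in all. Of these, 39 rose, 32 fell and 51 did not pass the test, or 58.2% called, beside 42.3% of all tested genes. Of the 122, 5 passed the count filter only through the KO group (Cbln1, Ppfia2, Dlgap2 and Cadm3, which were called higher, and Cbln4, which was not called) and 2 only through WT (Clstn3, called lower, and C1ql1, not called). Of the other 115, 35 rose and 31 fell, or 57.4% called, beside 41.4% of all genes that passed in each genotype alone. Over the 122 their median log2 fold change was 0.04. Among ligands and modulators of neurexins, 4 of 13 tested genes rose and 4 fell (61.5% called), among them Lrrtm4 and Lrrtm3 as described above. Cbln1, which bridges neurexins to delta glutamate receptors, rose from 0.173 ± 0.0779 to 4.30 ± 0.547 CPM (KO over WT 4.52 on the log2 scale, SE 0.32), with 0.101 to 0.256 CPM in the WT lines, near the value of 3 counts, so that its passing the filter rested on the KO libraries. Igsf21, a neurexin-2 ligand of inhibitory synapses, rose from 2.11 ± 0.843 to 14.2 ± 2.17 CPM (KO over WT 2.72 on the log2 scale). The latrophilin gene Lphn1 (Adgrl1) rose from 353 ± 29.1 to 684 ± 25.8 CPM (KO over WT 0.96 on the log2 scale; SD, n = 3 each). Among cytoplasmic partners of neurexins 5 of 13 rose, among them Ppfia3, Lin7b and Ppfia2 at log2 fold changes of 1.09, 1.39 and 2.04. The 1 that fell was Epb4.1l2, a membrane skeleton protein gene, at -1.13. With 46.2% called, this list lay near the 42.3% of all tested genes.

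Of the scaffolds and inhibitors of neuroligins, 7 of 18 tested genes rose and 3 fell, or 55.6% called, beside 42.3% of all tested genes. The postsynaptic scaffold gene Shank2 rose from 7.28 ± 0.496 to 17.99 ± 1.24 CPM (KO over WT 1.31 on the log2 scale), and Dlgap3 and Dlgap2 rose by 1.56 and 2.26. Those that fell were Dlg1 (-0.57), Shank1 (-0.70) and Mdga1 (-0.98), whose product binds neuroligins and blocks their contact with neurexins. In the list of other synaptic adhesion genes 12 of 31 rose and 8 fell, or 64.5% called. Ptprd, a receptor phosphatase that organises presynaptic terminals, rose from 8.73 ± 0.924 to 64.5 ± 17.2 CPM (KO over WT 2.88 on the log2 scale, SE 0.20), and Slitrk3 and Cadm3 rose by 1.97 and 2.28. Il1rap, a postsynaptic partner of such phosphatases, fell by a log2 fold change of -0.90.

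Neural adhesion genes of the immunoglobulin superfamily, the class to which the DSCAM genes belong, included 10 of 23 tested genes that fell and 5 that rose. Of the 23, 65.2% were called, beside 42.3% of all tested genes. Nrcam fell from 186 ± 40.9 to 34.8 ± 0.392 CPM (KO over WT -2.42 on the log2 scale), Alcam from 128 ± 3.97 to 41.2 ± 4.34 CPM (-1.64) and Negr1 from 16.3 ± 1.61 to 2.94 ± 0.661 CPM (-2.48). Those that rose were Cntn6 (3.42), L1cam (0.83), Igsf9 (0.88), Kirrel (0.58) and Opcml (1.37). Of 15 partners and effectors of DSCAM, 5 rose and 4 fell, or 60% called. Ntn1, the gene of the guidance cue netrin-1 that DSCAM binds, fell from 288 ± 36.2 to 98.5 ± 22.7 CPM (KO over WT -1.55 on the log2 scale; SD, n = 3 each). The netrin receptor genes Unc5a and Unc5b had log2 fold changes of 1.46 and -1.27, the kinase gene Ptk2 rose by 1.01, and Pak1 and Nck2 fell with -0.71 and -0.35.

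Of 9 tested regulators of neurexin splicing and of neurexin or neuroligin cleavage, 1 rose and 2 fell. That is 33.3% called, beside 42.3% of all tested genes. Adam10, a protease that sheds adhesion molecules from the cell surface, fell from 350 ± 19.7 to 123 ± 23.6 CPM (KO over WT -1.51 on the log2 scale, SE 0.14, adjusted p = 1.07e-04 in edgeR; SD, n = 3 each), and the related Adam17 fell by -0.58. Khdrbs1, whose protein acts on neurexin splicing, rose by 0.37 on the log2 scale (SE 0.11, adjusted p = 0.0282 in edgeR). Without WT line 3 the partner genes called higher were 26 of 123 (21.1%) and those called lower 25 (20.3%), where 14.2% and 16.2% of all tested genes were, so the counts dropped in both.

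**Figure D4:**
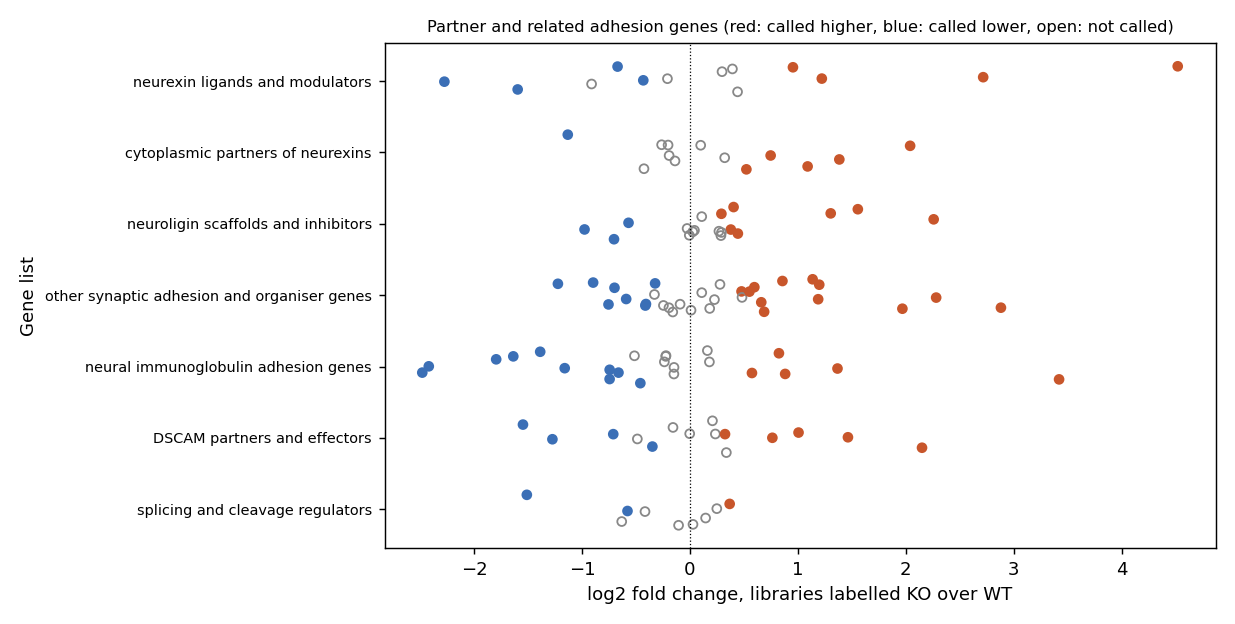
Log2 fold change of the libraries labelled KO over WT for each tested gene of the 7 lists of partner and related adhesion genes (1 point per gene, spread vertically for legibility; red called higher, blue called lower, open not called). Both directions occur in every list, from Negr1 at -2.48 to Cbln1 at 4.52, which passed the count filter only through the KO libraries.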

How the data were processed

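The authors deposited 1 table of raw counts per gene symbol for each of the 6 libraries, with 23337 rows and no normalization, per the file headers. The nuclear fraction came from a kit, and RNA with much U1 and little beta-actin was used, per the labels' protocols. The submitters' processing notes name cutadapt 1.14, STAR, HTSeq 0.7.2, DESeq2 and the build mm10; neither the role of each tool nor the annotation and strand setting was given in the sources used here.

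Genotype was tested on the counts in edgeR 4.0.16 (R 4.3.3): filterByExpr (minimum count 10), TMM scaling, and a robust quasi-likelihood fit over the 6 libraries, two-sided, with Benjamini-Hochberg adjustment over 13925 genes and a threshold of 0.05. Standard errors of fold changes came from the F statistics, and 95% intervals from these errors. The statistics were tested on simulated data before use. Totals of 18702738 to 26789522 counts made 1 count worth 0.0373 to 0.0535 CPM and a floor of 3 counts worth 0.112 to 0.160 CPM; intervals of counts (exact binomial, Clopper-Pearson) and floors cover counting error only. Exon unions and positions came from GENCODE mouse release 21 (GRCm38, the same assembly as mm10), and start regions from RefSeq in GRCm38.p6. Of the 144 symbols in the partner lists, 139 matched a row, directly or through a RefSeq synonym. Shares were compared with an exact permutation test over lines.

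The 9 genes and the lists were chosen with earlier results of these data known. Named genes followed a rule: all 9 genes; per partner list up to 4 called genes by smallest p-value, and any called against the majority direction of its list where there were 5 or fewer; the 2 genes nearest in pattern to each of the 9; genes overlapping them; and Fmr1 and Xist. The other LRRTM genes, the host genes without shared exons and the cell markers printed were added for context. Not all overlapping genes were described above. Those left out were Gm14964, Gm37980, AC154538.1 and AC154538.2, which have no count row, and 4833428L15Rik, which shares 2 exon bases with Dscaml1. Alternatives were DESeq2 1.42.0 size factors, library size alone, 2 other filters, the DESeq2 Wald test, limma-voom (limma 3.58.1), an Xist covariate (at least 1000 CPM), leaving out each line, and leaving out WT line 19 and KO line 3 together, and, added after seeing the data, counting only genes that pass the filter in each genotype alone. The marker lists for microglia, endothelial and mural cells, and fibroblasts summed to at most 1.34, 50.3 and 17.6 CPM in any library.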

Additional observations from a re-analysis of the deposited data

How the results depend on the processing

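Each of the 7 called genes kept its direction and its call in every alternative in which it was tested; Lrrtm1 did not pass a filter of 1 CPM in 3 libraries, which leaves 6 called. Over 15 alternatives, 1 of them chosen after seeing the data (genes that pass the filter in each genotype alone), the number of called genes among the 9 was 5 to 8, the number of all genes called 4262 to 7625 (main 5884), and that of partner genes 51 to 77 (main 71). With each line left out in turn these were 7 to 7, 4262 to 7610 and 51 to 77. Over all genes, those called higher fell from 3040 to 1994 without WT line 3. The uncalled genes changed sign: Nlgn2 had a log2 fold change of 0.0012 in limma-voom, 0.18 without WT line 19, 0.06 without KO line 3 and 0.26 without both, and Nrxn3 had -0.13 without WT line 19 and -0.19 without both, with ranges of -0.11 to 0.18 for Nlgn2 and -0.13 to 0.43 for Nrxn3 when each line was left out. The gain of Nlgn3 in its share of neuroligin level, 11.2 percentage points, was 9.90 to 12.2 with each line left out. It was 8.89 without WT line 19 and KO line 3 together. Without correction for length it was 15.5, where the longer Nlgn3 weighs more against Nlgn2. No paired analysis was possible because WT and KO share only the line number 3, which no label ties to a common source. With 8 counts over WT for each of Lrrtm1 and Dscaml1, depth limits the size of their differences.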
